A study of Homo sapiens with 6 samples.

Results

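Transcripts of 46 centrosome and centriole genes were measured by RNA sequencing in U87 cells, an established human glioblastoma line, after knockdown of the arginine methyltransferase PRMT6. The genes were chosen by name: 36 are all genes of the table whose symbol is CEP followed by a number and at most 1 letter, and the other 10 are CCP110, PLK4, STIL, SASS6, CNTROB, SPICE1, CETN2, CETN3, PCNT and CDK5RAP2. They are 46 of the 60612 genes in the table. The set was selected on a value of this same contrast, the low level of CEP97 in the knockdown cells, and on what is known of the genes that act with CEP97. The differences between the groups are therefore given below as a description of the members, with their standard errors and without p-values.

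The 2 groups had 3 libraries each. NC cells carried a lentiviral scramble shRNA and shPRMT6 cells a lentiviral shRNA against PRMT6, and both were stable lines selected with puromycin after infection in the presence of polybrene and grown in DMEM with serum. The study's methods call the libraries independent replicates, and whether each came from its own infection was not stated. The study used 3 shRNAs against PRMT6, and which of them the sequenced cells carried was not stated in the sources used here.

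Libraries held 56388161 to 75887696 counts in NC and 61805330 to 67630740 in shPRMT6. PRMT6 itself had 522, 606 and 449 counts in NC replicates 1 to 3 and 227, 282 and 355 in shPRMT6 replicates 1 to 3. Its level fell from 8.17 ± 1.08 CPM (counts scaled to a common library size) to 4.46 ± 0.844 (SD, n = 3 each), a log2 fold change of -0.87 ± 0.187 (SE, Benjamini-Hochberg adjusted p = 0.0225 in edgeR's quasi-likelihood test), and the groups did not overlap. The call was lost without NC replicate 1 (-0.77), shPRMT6 replicate 1 (-0.73) or shPRMT6 replicate 2 (-0.89), with the replicate number as a block and with limma on unfiltered FPKM. All 6 markers of a glioblastoma line that were looked at, VIM and CD44 among them, had at least 1 CPM in a library, with summed levels of 9173 to 10560 CPM in NC and 9143 to 9832 in shPRMT6. CDKN2A, CDKN2B and MTAP, which lie in the segment deleted in U87, summed to 0.195 to 0.456 CPM. The 4 leukocyte markers summed to at most 0.118 CPM in a library, and CD3E had no count in any. Endothelial, epithelial and neuron or oligodendrocyte markers reached 1 CPM for 1, 1 and 2 of 4 genes, and the summed epithelial level was 7.77 to 12.5 CPM in NC and 1.92 to 6.33 in shPRMT6. The summed endothelial level was 2.61 to 3.70 CPM in NC and 4.02 to 5.96 in shPRMT6, so that both sums separated the groups, in opposite directions. The summed neuron and oligodendrocyte level was 21.3 to 22.7 CPM in NC and 20.9 to 23.0 in shPRMT6. The part of other cells in the results was not tested.

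Centrioles are short cylinders of microtubules that organise the centrosome and, in resting cells, template the primary cilium. Once in each cell cycle the kinase PLK4, with STIL and the cartwheel protein SASS6, starts a new centriole beside each old one, on a platform formed by CEP152, CEP192 and CEP63. The finished cylinder is capped at its distal end by CP110, the product of CCP110, together with CEP97. This cap limits the length of the centriole, and its loss from the older centriole precedes the growth of a cilium.

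Of the 46 genes, 10 fell in shPRMT6 at an adjusted p under 0.05, where 9.06% of the 18106 genes tested did, and 2 rose, where 9.51% did. The 10 were CEP97, CETN3, CEP152, CEP131, PLK4, CEP68, CEP55, CEP85, CEP78 and SASS6, and CETN2 was among the 2. The 10 include CEP97, whose low level chose the set, so the count is a description only. The fold changes of the other 34 did not pass the threshold. All 46 genes passed the filter on low counts, the lowest count of a member in a library being 89. The log2 fold changes ran from -1.99 for CEP97 to 0.84 for CEP126, 29 of them below 0 and 17 above, with a median of -0.13, where the median over all genes tested was -0.01. With the threshold of the study's methods, a log2 fold change under -1 and an unadjusted p under 0.05, CEP97 and CETN3 were lower, and 2.63% of all genes were. This count, too, contains CEP97 and is a description only.

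The NC and shPRMT6 libraries did not overlap for 15 members that were lower and for 5 that were higher, shares that were 19.9% and 20.3% over all genes tested. Of these 20 members, 8 did not pass the adjusted threshold. Counts of members moved with NC replicate 2, which was the highest of the 3 NC libraries for 31 of the 46 members (67.4%) and for 36.5% of all genes tested. Its median deviation from the NC median was 0.14 on the log2 scale. Across the 46 members this deviation had a Pearson correlation of -0.36 with GC content and of 0.37 with log2 transcript length, and over all 17873 genes with a value the correlations were -0.15 and 0.10. These correlations are across genes of 1 library, which share its depth and base composition. Without NC replicate 2, 8 members fell and 7 rose. The shares of all genes called in that fit are not given here, so these counts are not read as a result about the members. The values without this library are given below for members whose call changed and for some others. Those of CEP120, CEP135, CEP128 and CEP85L, all short of the threshold in both fits, turned from -0.04, -0.07, -0.08 and -0.09 to 0.14, 0.08, 0.04 and 0.12 on the log2 scale.

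**Figure D1:**
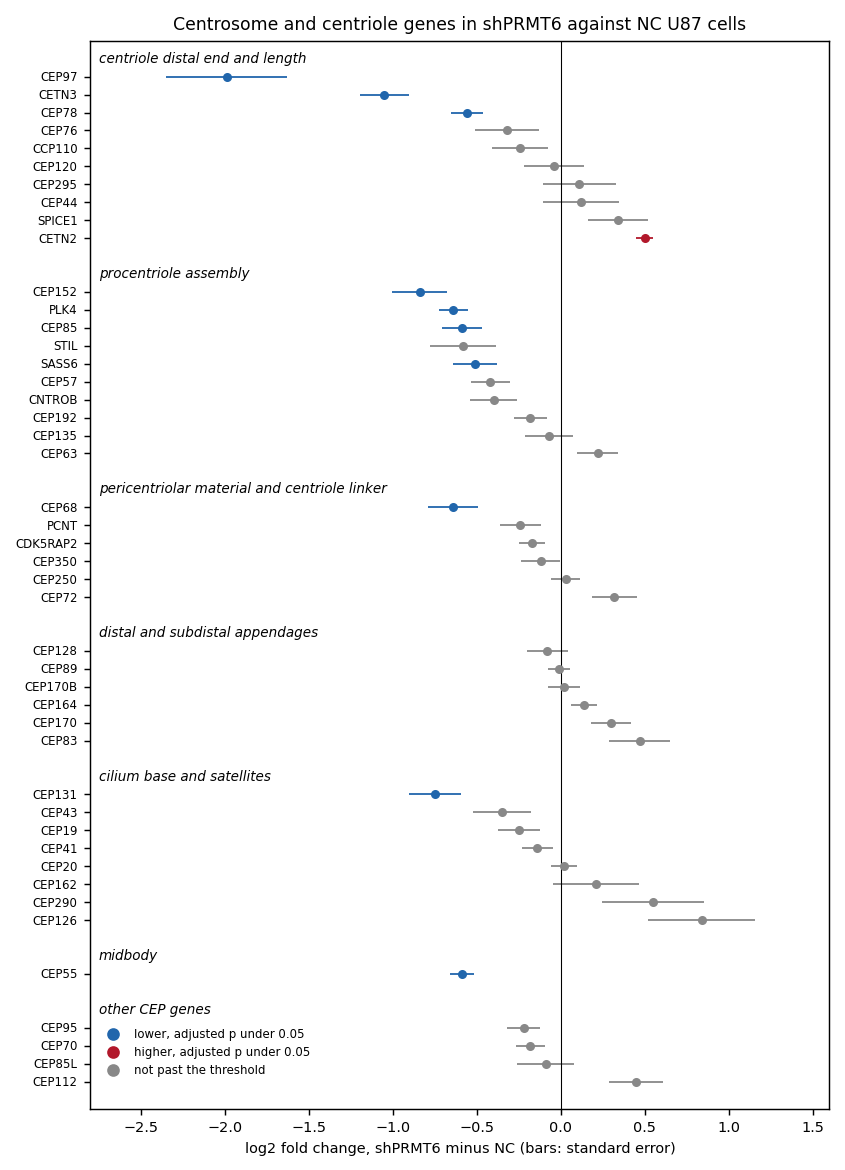
Log2 fold change (x axis) of 45 of the 46 genes, shPRMT6 minus NC, with the standard error of the fit as bars, grouped by role and coloured by the call. CEP97 sits farthest to the left at -1.99 and 4 of the 10 procentriole assembly genes are coloured as lower.

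CEP97, the distal cap protein, had the largest difference of the set. The gene (ENSG00000182504) lies at chr3:101723925-101770562 on the plus strand of GRCh38, and its exons overlap no other gene of GENCODE 29. It had 15.6, 28.9 and 22.0 CPM in NC replicates 1 to 3 and 8.53, 4.27 and 4.001 CPM in shPRMT6 replicates 1 to 3. The lowest NC library was above the highest shPRMT6 library, and replicate 1 was the highest of the shPRMT6 libraries. The mean fell from 22.2 ± 6.65 to 5.601 ± 2.54 CPM (SD, n = 3 each), to 25.3% of NC, with a log2 fold change of -1.99 ± 0.363 (SE). With 1 library left out the log2 fold change ran from -2.42 to -1.75, the latter without NC replicate 2, and it was short of the threshold without shPRMT6 replicate 2 (-1.82). These values chose the set and are a description only.

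CCP110 encodes CP110, which binds CEP97 and forms the cap with it. It had 30.9, 46.7 and 47.3 CPM in NC and 34.3, 35.9 and 35.3 CPM in shPRMT6. The shPRMT6 libraries were close to each other and fell inside the range of the NC libraries, of which replicate 1 was the lowest. The log2 fold change was -0.24 ± 0.166 and did not pass the threshold, and without NC replicate 1 it was -0.42 and did. Compared per transcript length, in FPKM (fragments per kilobase of transcript, scaled to library size), the level of CEP97 over that of CCP110 was 0.579, 0.708 and 0.530 in NC and 0.284, 0.135 and 0.129 in shPRMT6. The mean ratio was 0.606 ± 0.0921 in NC and 0.183 ± 0.0877 in shPRMT6 (SD, n = 3 each), and the libraries of the 2 groups did not overlap. The ratio contains CEP97, whose level chose the set, so its difference is a description only.

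The centrins CETN2 and CETN3 are small calcium-binding proteins of the distal centriole lumen, and the product of CETN2 is also a subunit of a complex that recognises damaged DNA. CETN3 had 34.8, 29.04 and 26.7 CPM in NC and 16.6, 14.6 and 12.7 CPM in shPRMT6. CETN2 had 119.7, 115.8 and 113.5 CPM in NC and 164.1, 165.7 and 163.7 CPM in shPRMT6. The 2 centrins moved in opposite directions in all 3 shPRMT6 libraries, each with no overlap between the groups. CETN3 fell to 48.4% of NC (log2 fold change -1.05 ± 0.146) and CETN2 rose to 141% of NC (0.50 ± 0.0518). Both calls held whichever of the 6 libraries was left out. The FPKM of CETN2 over that of CETN3 was 5.63, 6.53 and 6.98 in NC and 16.2, 18.6 and 21.3 in shPRMT6, with means of 6.38 ± 0.684 and 18.7 ± 2.52 (SD, n = 3 each).

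Among the other genes of the distal end and of centriole length, CEP78, a distal protein that acts on CP110 levels, fell (-0.56 ± 0.0958), and the call held in each of these 6 fits. CEP76, a partner of CP110 that limits duplication, had a log2 fold change of -0.32, CEP120, needed for elongation, of -0.04, CEP295 of 0.11 and CEP44 of 0.12, all short of the threshold. SPICE1, another elongation factor, had 0.34 and passed without NC replicate 2 (0.54), but 32% of its 75-base stretches also occur in an overlapping readthrough gene, so its counts are uncertain. Of the 11 genes put in this role, a place that is uncertain for CEP44, 3 fell, CEP97 among them, and 2 rose. Their median log2 fold change was -0.04.

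**Figure D2:**
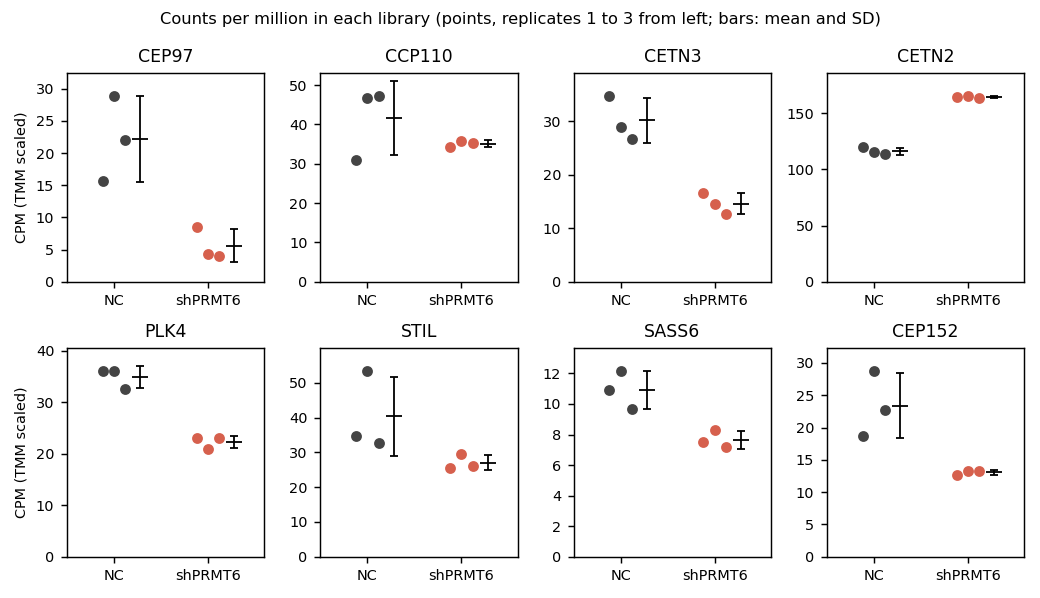
CPM scaled by trimmed mean of M values (TMM, y axis, from 0) of 8 genes in each of the 3 NC and 3 shPRMT6 libraries, with the mean and SD of each group beside the points. CETN2 is the gene of the 8 that is higher in shPRMT6, and for CCP110 the shPRMT6 points lie inside the NC range.

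The genes that start a new centriole had the lowest median among the roles with several genes, -0.46 over 10 genes, of which 4 fell. PLK4, the kinase that sets the number of new centrioles, had 36.2, 36.1 and 32.5 CPM in NC and 23.1, 21.03 and 23.0 CPM in shPRMT6. It fell to 64.1% of NC (-0.64 ± 0.0860) in tightly grouped libraries, and the call held whichever library was left out. STIL, which PLK4 phosphorylates and which brings in SASS6, had 34.7, 53.5 and 32.7 CPM in NC and 25.6, 29.5 and 26.0 CPM in shPRMT6. The STIL groups did not overlap, but NC replicate 2 stood above the other NC libraries, and the log2 fold change of -0.58 ± 0.197 did not pass the threshold. Without that library it was -0.32.

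SASS6, the hub protein of the cartwheel that gives the centriole its symmetry, had 10.9, 12.2 and 9.66 CPM in NC and 7.49, 8.32 and 7.16 CPM in shPRMT6. The groups did not overlap (-0.51 ± 0.131, and -0.42 without NC replicate 2), and the call was lost whichever library was left out. A gene on the same strand overlaps 7.4% of its exon bases. CEP152, the platform protein that recruits PLK4, had 18.7, 28.8 and 22.7 CPM in NC and 12.6, 13.3 and 13.3 CPM in shPRMT6. It fell to 55.8% of NC (-0.84 ± 0.162), without NC replicate 2 by 0.67 on the log2 scale, and the call was lost whichever of the 3 shPRMT6 libraries was left out.

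The partners of CEP152 on the platform had smaller differences. CEP192 had 39.6, 47.2 and 38.5 CPM in NC and 37.2, 34.7 and 38.3 CPM in shPRMT6. CEP63 had 25.9, 28.8 and 21.1 CPM in NC and 30.2, 29.7 and 28.4 CPM in shPRMT6. Neither passed the threshold (-0.18 ± 0.101 and 0.22 ± 0.124), and their values lay on opposite sides of 0. CEP85, which binds STIL, fell (-0.59 ± 0.119) and lost the call without NC replicate 3. CEP57, another platform protein, had -0.42, CNTROB, a protein of the daughter centriole, -0.40 and CEP135, which joins the cartwheel to the wall, -0.07, all short of the threshold.

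The pericentriolar material is the protein matrix from which the centrosome grows microtubules, and PCNT and CDK5RAP2 are its scaffold proteins. PCNT had 55.6, 71.5 and 62.6 CPM in NC and 57.1, 47.1 and 56.6 CPM in shPRMT6. CDK5RAP2 had 84.5, 101.1 and 94.4 CPM in NC and 85.1, 81.3 and 82.3 CPM in shPRMT6. In both the groups overlapped, and the log2 fold changes of -0.24 ± 0.121 and -0.17 ± 0.0790 did not pass the threshold.

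CEP68, a protein of the linker that ties the 2 centrioles together, had 10.0, 10.2 and 9.82 CPM in NC and 6.17, 5.48 and 7.63 CPM in shPRMT6. Its 3 NC libraries had an SD of 0.180 CPM and were all above shPRMT6. It fell (-0.64 ± 0.148, and -0.63 and short of the threshold without NC replicate 2), and the call held in 1 of the 6 fits with a library left out. RAB1A on the opposite strand overlaps 8.8% of its exon bases, and the library kit did not mark strand. CEP250, the protein to which the linker is anchored, had a log2 fold change of 0.03, CEP350 of -0.12 and CEP72 of 0.32, all short of the threshold.

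The appendages are spokes on the older centriole that dock it to the membrane and anchor microtubules. Their 6 genes ran from -0.08 to 0.47 with a median log2 fold change of 0.08. CEP83, the root of the distal appendages, had 0.47 and CEP170, a subdistal appendage protein, 0.30, and both passed the threshold without NC replicate 2 (0.66 and 0.43). For CEP170, 24.6% of the 75-base stretches are shared with other genes, chiefly the pseudogene CEP170P1. The distal appendage genes CEP164 and CEP89 had 0.14 and -0.01, CEP128 -0.08 and CEP170B 0.02.

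Of the 8 genes of the cilium base and of centriolar satellites, CEP131, a satellite protein, fell. It had 9.75, 13.6 and 11.9 CPM in NC and 7.62, 6.42 and 6.998 CPM in shPRMT6, with no overlap (-0.75 ± 0.154), and the call was lost without NC replicate 3, shPRMT6 replicate 2 or shPRMT6 replicate 3. CEP290, a protein of the transition zone at the foot of the cilium, had a log2 fold change of 0.55 ± 0.304, short of the threshold. It was 1.00 and past it without NC replicate 2, which had 9.04 CPM against 4.35 and 4.33 in the other NC libraries. CEP126 had 0.84 ± 0.320 at 2.08 ± 0.662 CPM in NC, short of the threshold with overlapping groups. The others ran from -0.35 for CEP43 to 0.21 for CEP162.

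CEP55 acts outside the centrosome, at the midbody where daughter cells are cut apart, and is the second most abundant member per length. It fell from 113.3 ± 8.06 to 75.5 ± 2.05 CPM (SD, n = 3 each; -0.59 ± 0.0713) and kept its call whichever library was left out. The 4 remaining CEP genes ran from -0.22 for CEP95 to 0.45 for CEP112, and CEP112 passed the threshold without NC replicate 2 (0.60). Over the whole set the calls of CETN3, PLK4, CEP55, CEP78 and CETN2 held in each of those 6 fits, and that of CEP85 in 5.

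Most of the genes were expressed at low levels. Per transcript length, 3 had at least 10 FPKM in NC, CETN2 with 51.9 ± 0.900, CEP55 with 28.97 ± 1.87 and CEP20, a protein of centriolar satellites, with 12.6 ± 0.364 (SD, n = 3 each). At the other end 7 had under 1 FPKM, CEP290 lowest with 0.195 ± 0.0905. CEP97 ranked 24 of 46 with 2.10 ± 0.637 FPKM in NC and had 0.531 in shPRMT6, and CCP110 ranked 18 with 3.45 ± 0.802 FPKM in NC.

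**Figure D3:**
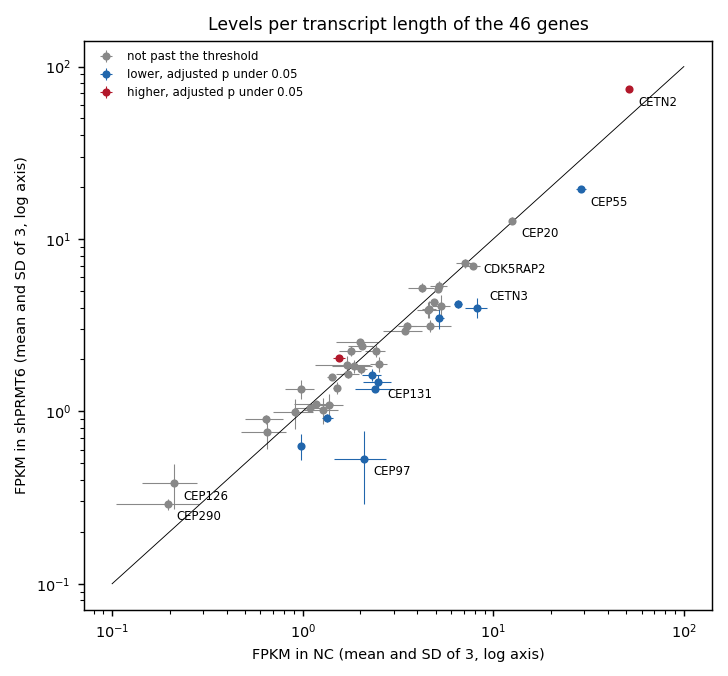
Mean FPKM in shPRMT6 (y axis) against mean FPKM in NC (x axis) for the 46 genes, both on log axes, with the SD of 3 libraries as bars and the diagonal marking equal levels. CEP97 lies farthest below the diagonal, CETN2 is the most abundant gene and lies above it.

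**Figure D4:**
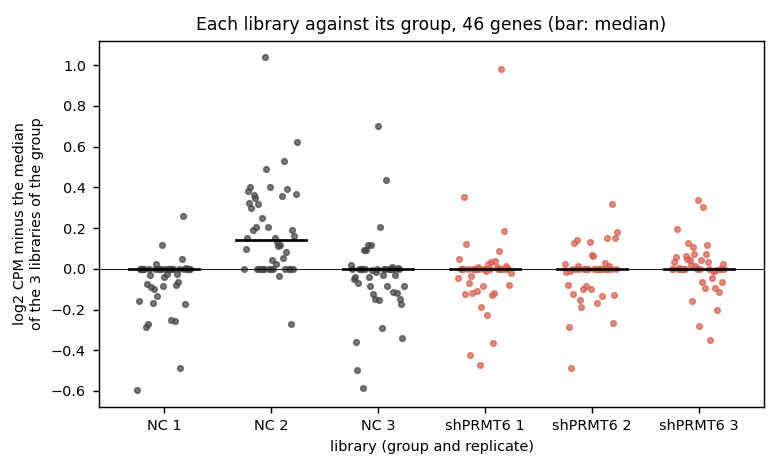
Log2 CPM of each of the 46 genes in each library minus the median of its group of 3 (y axis), with 0.1 added before the logarithm and the median over genes as a bar. The bar of NC replicate 2 lies at 0.14, and those of the other libraries lie at 0.

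The promoters of members were read to see what those that fell share. RefSeq windows of GRCh38.p14, from 250 bases before to 50 after a start site, were held for 40 of the 46 genes, and CEP78, SPICE1, CEP250, CETN3 and CEP170B were among those without one. They were searched on both strands for the cell cycle homology region (CHR, TTTGAA or TTCGAA), for E2F elements (TTTCCCGC, TTTGGCGC, TTTCGCGC or TTTGCCGC) and for CCAAT. None of these strings contains another, but matches on the 2 strands can overlap. CHR was present in a window of 16 of the 40 members and in 16.4% of the 35116 windows of all genes. E2F elements were present for 8 members and in 3.31% of windows, and CCAAT for 23 members and in 34.6% of windows. Some genes have several windows, and a member was counted once if any of its windows held the string. The counts of members and the shares of windows are thus in unlike units and are not compared.

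Among the 8 members with a window that fell, 3 held CHR, 2 an E2F element and 7 CCAAT, and among the 31 not past the threshold the counts were 13, 6 and 15. SASS6 was the member of the 8 whose windows held no CCAAT, and the promoter of CETN2, which rose, held it. The members with CHR that fell were CEP152, CEP55 and PLK4. The windows of CEP97, PLK4 and CEP55 are shown with the matches in capitals, as the distal cap gene, the kinase that starts duplication and the abundant midbody gene. They lie at chr3:101724364-101724663, chr4:127880643-127880942 and chr10:93496362-93496661, all on the plus strand, and the CCAAT of PLK4 lies in another of its windows.
CEP97: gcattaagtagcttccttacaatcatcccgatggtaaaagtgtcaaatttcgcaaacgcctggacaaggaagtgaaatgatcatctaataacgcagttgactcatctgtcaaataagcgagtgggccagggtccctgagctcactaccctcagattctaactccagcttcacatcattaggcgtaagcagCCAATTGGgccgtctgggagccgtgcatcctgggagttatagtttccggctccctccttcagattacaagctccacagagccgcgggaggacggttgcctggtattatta
PLK4: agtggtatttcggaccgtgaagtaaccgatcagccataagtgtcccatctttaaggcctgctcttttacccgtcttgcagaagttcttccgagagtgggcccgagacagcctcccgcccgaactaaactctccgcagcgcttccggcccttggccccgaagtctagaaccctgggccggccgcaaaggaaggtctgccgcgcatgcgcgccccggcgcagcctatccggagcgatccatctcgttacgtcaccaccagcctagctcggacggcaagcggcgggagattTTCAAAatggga
CEP55: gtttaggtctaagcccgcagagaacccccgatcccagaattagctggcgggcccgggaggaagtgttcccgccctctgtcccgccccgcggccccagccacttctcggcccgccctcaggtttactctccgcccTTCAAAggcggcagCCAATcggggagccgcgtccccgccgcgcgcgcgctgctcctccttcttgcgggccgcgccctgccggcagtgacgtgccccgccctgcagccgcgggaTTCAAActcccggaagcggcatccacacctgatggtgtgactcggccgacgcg
In CEP97 a CCAAT and its reverse complement ATTGG overlap at 60 and 57 bases before the start. In this PLK4 window the CHR, read as TTCAAA on the plus strand, lies 39 bases after the start, and in CEP55 it lies 116 and 3 bases before it.

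The 3′ UTRs of the members were compared with the shRNAs of the study, since an shRNA can pair with other transcripts through bases 2 to 8 of its antisense strand, the seed. The antisense strands of the 3 designed shRNAs are given with the seed in capitals. A site is the reverse complement of a seed, AGCATCT for #2.
shPRMT6 #1: aTAAGGCAtctcaaactgggc
shPRMT6 #2: aAGATGCTcagaatgccggtg
shPRMT6 #3: aTCTCTCCtgaaacgtccgtg
All 46 members have an annotated 3′ UTR of at least 50 bases in GENCODE 29. The site of #2 was present in 13 of them and in 15.3% of the 18816 genes with such a UTR. The sites of #1 and #3 were present in 7 and 8 members and in 14.0% and 19.4% of genes. No shRNA paired with CEP97 over its whole length: the best matches were 14, 13 and 15 of 21 bases.

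Of the 13 members with a #2 site 6 fell, CEP97, CETN3, CEP68, CEP85, CEP78 and SASS6, and of the 33 without it 4 fell. The median log2 fold changes were -0.35 and -0.08. CEP97, whose low level chose the set, is counted in the 6 and in the first median. Over all genes tested that have a 3′ UTR, 14.9% of the 2217 with the site and 10.4% of the 10902 without it fell, with medians of -0.04 and 0.02. The UTRs with the site were longer, with median lengths of 3370 and 1005 bases among members and of 3106 and 1151 bases over all genes. The counts of 6 of 13 and 4 of 33 were not stable, and those that follow are of the same 13 and 33 members. They were 4 and 5 without NC replicate 1, 4 and 4 without NC replicate 2, and 3 and 3 without NC replicate 3. Without shPRMT6 replicate 1 they were 4 and 3, without replicate 2 3 and 2, and without replicate 3 5 and 2. They were 3 and 2 with limma on unfiltered FPKM, and 2 and 3 with the replicate number as a block. With DESeq2 they were 6 and 7, and with GC content and length trends 6 and 6. For #1 2 of 7 members with the site and 8 of 39 without it fell, and over all genes 10.0% and 11.3% did. For #3 the members were 2 of 8 and 8 of 38, and the shares of all genes 9.35% and 11.6%. The part of such matches in the fall of these genes was not tested.

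The #2 sites in the 2 members with the largest falls and in the duplication gene SASS6 are shown with their flanks, the site in capitals. Sites of #1 and #3 are not shown, and whether the sequenced cells carried #2 was not stated in the sources used here.
CEP97 site 1: gcaatacttaAGCATCTctaaatttag
CEP97 site 2: gtaaaataaaAGCATCTgatccttcaa
CETN3 site: accaaaaataAGCATCTtatatatctg
SASS6 site: actattatgcAGCATCTacactttg
The sites lie in 3′ UTR exons at chr3:101766804-101766810 and chr3:101766886-101766892 on the plus strand for CEP97, in 1 of its 2 coding transcripts. That of CETN3 lies at chr5:90393940-90393946 on the minus strand, in 3 of 5 coding transcripts, and that of SASS6 at chr1:100083571-100083577 on the minus strand.

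**Figure D5:**
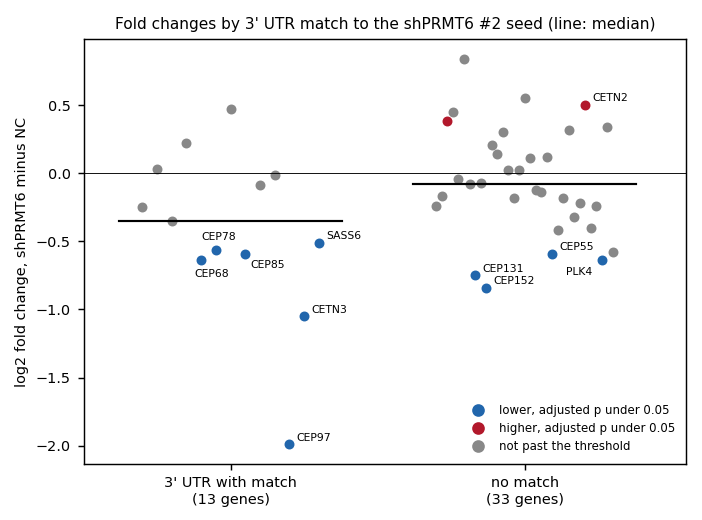
Log2 fold change (y axis) of the 13 members whose 3′ UTR holds the site of the shPRMT6 #2 seed and of the 33 without it, spread along the x axis by symbol, with the median of each group as a line at -0.35 and -0.08. CEP97, whose low level chose the set, and CETN3 are the lowest points and are both on the side with the site. Sites of the other shRNAs are not plotted.

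Other genes of the centrosome and cilium were read from lists of genes that are not members, 117 tested genes in all. Of these 22 fell and 9 rose, 18.8% and 7.69%, where 9.06% and 9.51% of all genes tested did. Among 23 further centriole and appendage genes 7 fell and 1 rose (30.4% and 4.35%), with a median of -0.30. WDR62, a spindle pole and centriole protein, had the smallest p and fell (-1.20 ± 0.0922, adjusted p = 0.000918), followed by the appendage gene ODF2 (-0.65, 0.00187) and the centriole wall gene POC1A (-0.79, 0.00345), while its paralog POC1B rose (0.56, 0.00914), each second value being a Benjamini-Hochberg adjusted p of edgeR's quasi-likelihood test. Among 18 further genes of the pericentriolar material 9 fell and 1 rose, with a median of -0.34. The mitotic kinases PLK1 (-0.89, adjusted p = 0.000580 by the same edgeR test), NEK2 (-0.85) and AURKA (-0.60) fell, and TUBGCP5, a subunit of the ring complex that nucleates microtubules, rose (0.66).

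The list of regulators of CP110 and CEP97 had 13 tested genes. Of these 2 fell and 1 rose (15.4% and 7.69%), with a median log2 fold change of -0.13. CCNF, which encodes the cyclin F that marks CP110 for degradation, fell by 0.97 on the log2 scale (SE 0.0910, edgeR adjusted p = 0.00156). KIF24, a kinesin that binds CP110 and CEP97 and acts against cilium growth, fell by 0.53, and BTRC, a ubiquitin ligase subunit that acts on PLK4, rose by 0.28. The intraflagellar transport genes, part of the machinery that builds the cilium, had shares near those of all genes. Of 31 tested intraflagellar transport genes 3 fell and 3 rose (9.68% each, against 9.06% and 9.51% of all genes), with a median of 0.11, DYNC2I2 (-0.73) and IFT52 (-0.56) among the first and KIFAP3 (0.52) and WDR19 (0.52) among the second. Of 32 tested genes of the transition zone and the BBSome, a coat that carries membrane proteins in cilia, 3.125% fell and 9.375% rose. B9D1 fell (-0.54) and BBS4 (0.91), BBS7 (0.37) and BBS2 (0.39) rose, and the median of the list was -0.04.

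Markers of cycling cells fell more often than the members, of which 10 of 46 fell, with a median log2 fold change of -0.13. Of 42 S phase markers 28 fell (66.7%, against 9.06% of all genes tested), with a median log2 fold change of -0.53. Their summed level was 3220 to 3402 CPM in NC and 2296 to 2370 in shPRMT6. Of 50 G2/M markers 38 fell (76.0%), with a median of -0.79. Their summed level was 6285 to 6816 CPM in NC and 4134 to 4193 in shPRMT6. Neither sum overlapped between the groups. AURKA and NEK2 stand in the G2/M list as well as in that of the pericentriolar material. In libraries made from whole cultures, fewer cells of a cycle stage and less RNA per cell cannot be told apart, and the part of the cycle markers in the values of the members was not tested.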

How the data were processed

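RNA of 3 NC and 3 shPRMT6 U87 libraries was sequenced from NEBNext Ultra RNA libraries, which do not mark strand. The labels name Trizol for RNA isolation and the study's methods an RNeasy kit. The submitters' processing notes name HISAT2, HTSeq 0.13.5 and GRCh38, and the annotation release and strand setting are not given in the sources used here. The deposited table gave raw counts of reads per gene and library. In the same table the authors gave FPKM, which scales counts by gene length and depth, with 0.0001 for a gene without counts.

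Of 60612 identifiers, 60401 matched a symbol and 58394 were in GENCODE 29, as were all 46 members. Groups came from the sample titles. Counts were fitted with edgeR 4.0.16 (R 4.3.3, TMM scaling, factors 0.992 to 1.01, filterByExpr by group, quasi-likelihood test) and p-values adjusted over all 18106 genes tested by the Benjamini-Hochberg method. A standard error is the absolute log2 fold change over the square root of F. CPM are TMM scaled. Tested on simulated counts of 18100 genes, the fit called 97.5% of the 200 that were changed, and 3.94% of its calls were false. Every simulated gene had the same spread beyond counting error, and each changed gene differed by at least 1 on the log2 scale. Most members differed by less, so these shares do not measure how reliable the calls of members are. Alternatives used DESeq2 1.42.0, limma 3.58.1 on log2 FPKM (pseudocount 1 with a mean FPKM minimum of 1 or unfiltered, pseudocount 0.1 with that minimum), other scalings and filters on counts, a replicate block, GC content and length trends, and each library left out. Replicates differed by more than counting error (chi-square per degree of freedom 48.2 to 78.4).

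The members and the gene lists were chosen with earlier results of these data known. Per-library values were given for CEP97, CCP110, PLK4, STIL, SASS6, CEP152, CEP192, CEP63, CETN2, CETN3, PCNT and CDK5RAP2 and for the 6 largest rises and falls past the adjusted threshold at an average log2 CPM not under 1. NC replicate 2 was singled out, and the value of CEP290 in each NC library was added, after the values were seen. Other list genes were named by the smallest p, at most 4 in each. The values of 1 member and 1 marker are not reported here. Promoter windows were RefSeq's, and 3′ UTRs came from GENCODE 29.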

Additional observations from a re-analysis of the deposited data

How the results depend on the processing

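No member past the threshold changed direction under any alternative, and of 724 member fold changes under alternatives 699 stayed within 1 SD of the fitted value. The 10 members lower became 13 with DESeq2 and 12 with GC content and length trends. They became 5 with the replicate block, 5 with unfiltered limma on log2(FPKM + 1) and 5 to 9 with a library left out. The 2 members higher became 6 with DESeq2, 1 with the replicate block, 1 with limma without a filter and 1 to 7 with a library left out, 7 of them without NC replicate 2. The shares of all genes called under these alternatives are not given here. The change of CEP97 was -1.01 in both limma fits on log2(FPKM + 1), a scale that understates low genes, and -2.42 to -1.75 with a library left out. The PRMT6 call was lost with the replicate block (-0.88) and with limma without a filter (-0.47), and without NC replicate 1 or shPRMT6 replicate 1 or 2, within a range of -1.0 to -0.73. For the other centrosome and cilium lists, the 22 lower became 33 with DESeq2 and 24 with GC content and length trends. They became 14 with a minimum of 1 count in any library, 12 with the replicate block and 13 with limma without a filter. With a library left out they became 9 to 18, lowest without shPRMT6 replicate 3. The 9 higher of these lists became 18 with DESeq2, 5 with the replicate block and 4 to 11 with a library left out. The cause of these shifts was not tested. The members' median stayed between -0.17 and -0.05. Replicate numbers did not pair the libraries: same-numbered deviations correlated at -0.0301 to -0.0171, so the block is a result by number only. Depth was 56388161 counts or more per library, and 3 libraries per group limit the precision.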
